A study of Mus musculus with 2 samples.

Results

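Kupffer cells, the resident macrophages of the liver, were taken as the cells of a mouse liver suspension that carried the complement transcripts C1qa, C1qb and C1qc together with the Kupffer markers Clec4f and Timd4. Of 24093 cell barcodes kept, 632 met the rule: 385 wild-type and 247 knockout cells. Members were chosen by their raw UMIs, the tags that mark single RNA molecules, with at least 20 UMIs of C1qa, C1qb and C1qc, at least 3 of Clec4f and Timd4, none of the T cell genes Cd3d, Cd3e and Cd3g, at most 2 of the B cell genes Cd79a, Cd79b and Ms4a1, and at most 3 of the endothelial genes Stab2, Clec4g and Ptprb. The values of these 14 genes are given as description only.

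Kupffer cells line the liver sinusoids and clear particles, dying cells, aged red cells and bacterial products from portal blood. Their identity is known to depend on signals from endothelial and stellate cells, among them Notch ligands and TGF-beta family members, which act with the transcription factors Nr1h3 (LXR-alpha), Id3 and Spic. After injury part of the resident pool is lost and recruited monocytes can take up the niche, gaining Clec4f early and the apoptotic cell receptor Timd4 late.

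Both groups were mice injected intraperitoneally with carbon tetrachloride (CCl4), a hepatotoxin that scars the liver, for 8 weeks. The wild-type group was Mfap2+/+ and the knockout group Mfap2-/-, lacking the gene of a glycoprotein of extracellular microfibrils. Non-parenchymal liver cells, those other than hepatocytes, gave 1 droplet single-cell RNA library per genotype, and the labels give neither the age, sex or strain of the mice nor how many animals each library pooled. Differences between libraries therefore have no replicate check, and genotype, animal and preparation cannot be told apart.

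The libraries held 82499307 and 118226367 UMIs over 11783 and 12872 barcodes, with medians of 4685 and 6511 per barcode. Of the barcodes, 40 occurred in both libraries. No Kupffer cell was among the cells of both, and 2 Kupffer cells had a barcode that also occurred in the other library. The deleted gene, Mfap2, had 4 UMIs in wild-type and 0 in knockout Kupffer cells, where 3 counts would be 0.861 CPM. CPM are UMIs per 1000000 UMIs summed over the cells of a population. Kupffer cells were deep, with medians of 12191 and 14170 UMIs and 3369 and 3642 genes per cell.

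Paired values give the wild type first and the knockout second. Ratios are log2 of knockout over wild-type CPM with 1 count added to each sum, and stand in brackets after the pair of levels. Ranges in brackets are 95% intervals that cover counting error only.

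**Figure D1:**
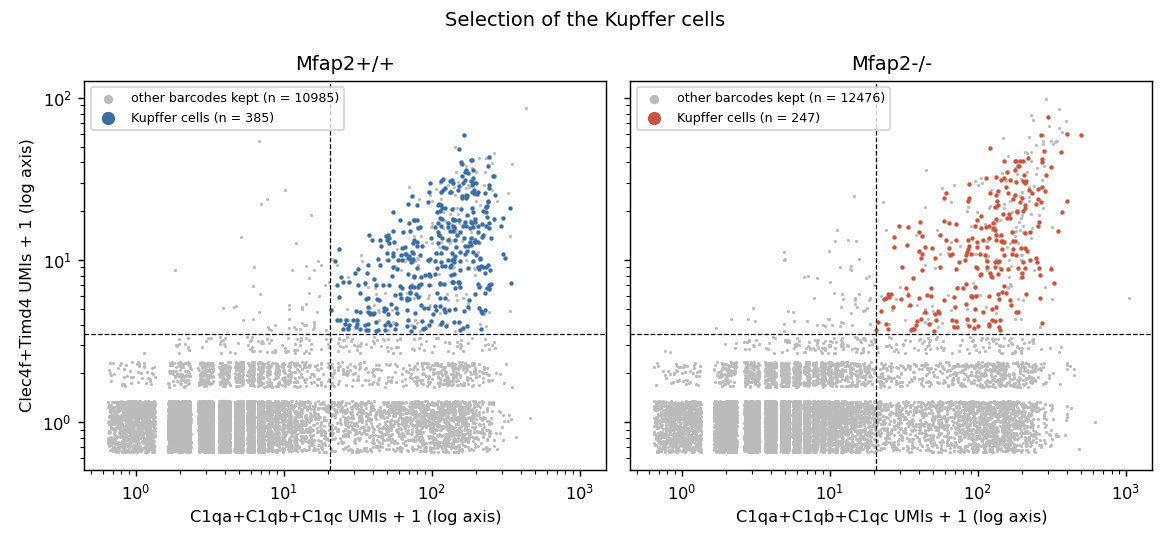
Each point is a barcode kept, by its C1qa, C1qb and C1qc UMIs (horizontal) and its Clec4f and Timd4 UMIs (vertical), both plus 1 on log axes with a small random offset. Dashed lines mark the minimums of 20 and 3 UMIs, and coloured points are the 385 wild-type and 247 knockout Kupffer cells.

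The label was checked on marker genes in cells thinned to 3000 UMIs each. The 11 wild-type and 18 knockout Kupffer cells with fewer UMIs were not used there. Clec4f, a galactose-binding lectin of Kupffer cells on chromosome 6 (83644542 to 83656187, minus strand, GRCm38), was found in 86.6% and 84.7% of them, a share that the rule itself set. In B cells, which should lack it and so show the free RNA of each library, the shares were 4.23% and 3.95%. Cd5l, a secreted scavenger protein of tissue macrophages, was found in 98.7% and 95.6% of Kupffer cells against 38.4% and 21.97% of B cells. Vsig4, a complement receptor, was found in 77.5% and 65.1% against 11.5% and 6.78%. Before thinning, the Kupffer cell shares were 98.4% and 98.4% for Clec4f, 100% and 100% for Cd5l and 85.7% and 76.9% for Vsig4. The unthinned B cell shares were 5.56% and 9.01%, 52.6% and 38.8%, and 17.5% and 13.2%, at median depths of 3935 and 5217 UMIs. Cd5l and Vsig4, which the rule did not read, were thus found above the level of free RNA in both libraries.

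Cells just inside and just outside the minimum of Clec4f and Timd4 UMIs differed in other Kupffer genes as well. In the wild type, Vsig4 stood at 211 CPM in C1q-high cells with 0 such UMIs, 278 with 1 or 2, 719 with 3 or 4 and 1362 with 5 or more. In the knockout the same steps gave 178, 183, 575 and 921 CPM. Marco, a scavenger receptor, went from 77.7 and 230 CPM outside to 1013 and 2899 CPM inside in the wild type, whereas knockout levels went from 20.1 CPM, with 0 such UMIs, to 276 and 360 CPM inside.

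Of the wild-type barcodes kept, 3.39% (3.06 to 3.74) were Kupffer cells, and of the knockout ones 1.94% (1.71 to 2.20). The log2 ratio of these shares was -0.80 (-1.04 to -0.57). Among C1q-high cells within the same limits the shares were 22.8% (20.8 to 24.9) and 15.8% (14.1 to 17.7), with a log2 ratio at -0.53 (-0.76 to -0.29). The limits on other cells' UMIs removed a larger part of the knockout candidates. The endothelial limit alone removed 55 of 550 wild-type (10%) and 62 of 424 knockout candidates (14.6%), and these had medians of 18119 and 20520.5 UMIs. With none of the 3 limits applied the log2 ratio of the share of barcodes kept was -0.54, nearer to 0 than the -0.80 with them.

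The rule's own genes differed in direction. Clec4f stood at 802 CPM in wild-type and 949 CPM in knockout Kupffer cells, whereas Timd4, on chromosome 11 (46810800 to 46844332, plus strand), stood at 119 and 52.8 CPM. A Timd4 UMI was found in 123 of 385 wild-type (31.9%, 27.3 to 36.9) and 55 of 247 knockout cells (22.3%, 17.2 to 28.0). C1qa stood at 3738 and 3617 CPM.

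Across genes, 9262 had at least 50 UMIs in the Kupffer cells of both libraries together. Of these, 306 (3.3%) were at least 2-fold higher and 152 (1.64%) at least 2-fold lower in the knockout library, and the median log2 ratio of all was 0.06. Ratios above 0 were held by 55.0% of these genes. Counting intervals lay wholly above 0 for 2359 genes (25.5%) and wholly below 0 for 1627 (17.6%), and they narrow as a gene's UMIs increase. Among genes with a mean of at least 100 CPM that were no lower in these cells than in the remaining barcodes, the lowest ratios belonged to Saa3, Cxcl13 and Marco and the highest to Bag3, Slc5a3 and Hspb1. Heat-shock, antigen presentation and interferon-induced genes stood above the median of all genes, and Kupffer identity, complement and glycolysis genes stood below it.

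**Figure D2:**
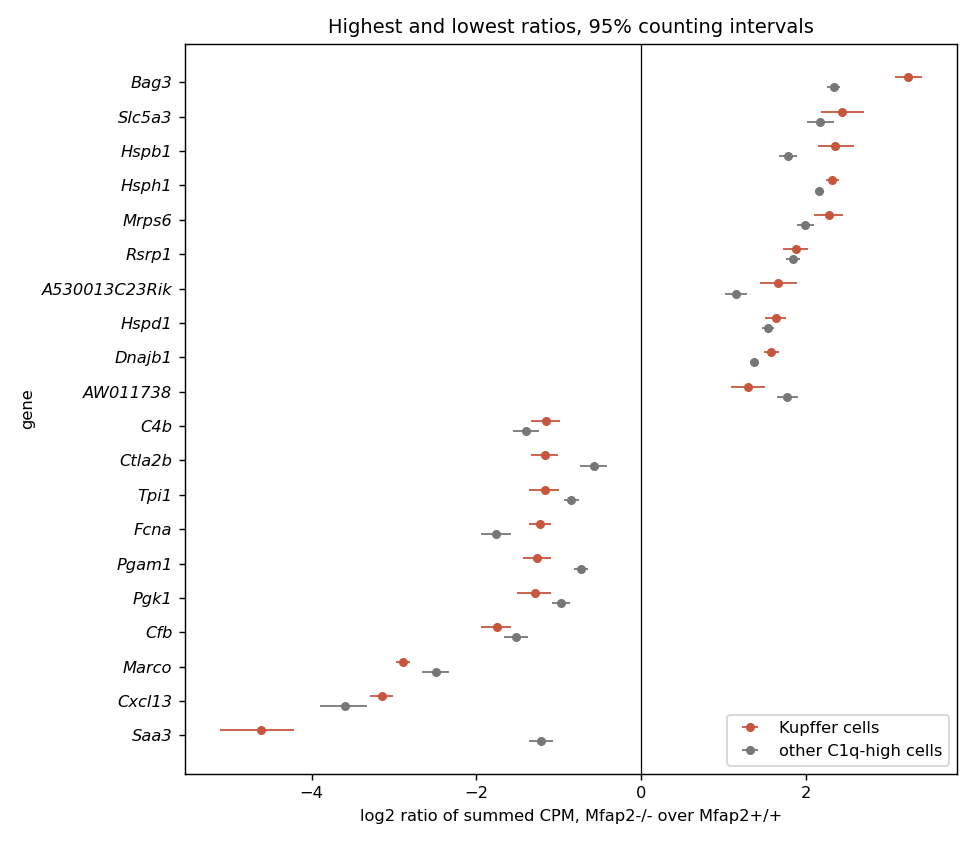
Points are log2 ratios of summed CPM, knockout over wild type, of the 10 highest and 10 lowest genes in Kupffer cells (red) and of the same genes in other C1q-high cells (grey), and bars are 95% counting intervals. All 20 genes lay on the same side of 0 in both populations, and the populations stood farthest apart for Saa3, at -4.61 and -1.22.

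Among the 18 Kupffer identity genes that the rule did not read, the median log2 ratio was -0.44. Of these, 3 were at least 2-fold lower and 1 was at least 2-fold higher, beside 1.64% and 3.3% of all genes. Intervals of 12 genes lay below 0 and of 2 above 0, beside 17.6% and 25.5% of all genes. In B cells the list's median was -0.25 over 14 genes measured there, and that of all genes was 0.14. Marco, on chromosome 1 (120474538 to 120505024, minus strand), a receptor for bacteria and particles, had 12812 wild-type UMIs (2575 CPM) and 1213 knockout UMIs (348 CPM). Its log2 ratio was -2.89 (-2.97 to -2.80). Fcna, a ficolin that recognises sugars on microbes, stood at 398 and 170 CPM (-1.22, -1.36 to -1.09). Cd163, the receptor for haemoglobin bound to haptoglobin, stood at 50.04 and 15.8 CPM (-1.64). The gene that was higher was Hpgd, which degrades prostaglandins, at 230 and 466 CPM (1.02).

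Other identity genes differed by less than 2-fold. Cd5l stood at 5712 and 3404 CPM (-0.75), Vsig4 at 1252 and 873 CPM (-0.52) and the folate receptor Folr2 at 342 and 230 CPM (-0.57). C6, a terminal complement component, stood at 211 and 146 CPM (-0.53). The iron exporter Slc40a1 was at 669 and 677 CPM (0.02, -0.06 to 0.09) and the podoplanin receptor Clec1b at 268 and 310 CPM (0.21). Clec1b overlaps Clec9a on the same strand, so reads of these genes may be mixed. The identity genes thus did not differ by a common factor.

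The identity median lay nearer to 0 in cells with few UMIs of some markers of other cell types. Every cell was left out that had more than 5 raw UMIs of any 1 marker group. The groups were S100a8 with S100a9, Alb with Apoa1, Col1a1 with Col3a1 and Dcn, and Nkg7 with Gzma. No other markers were read. The limit does not adjust for depth, and S100a9 alone stood at 616 and 382 CPM in all Kupffer cells. The depth of the cells left was not compared. In all, 99 wild-type and 78 knockout cells remained. In these the identity median was -0.14, Marco was at -1.58, Fcna at -0.65 and Cd163 at 0.00.

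Marco UMIs also occurred in B cells, which should lack the gene. After thinning, a Marco UMI was found in 41.4% (36.4 to 46.6) of wild-type and 20.96% (15.9 to 26.8) of knockout Kupffer cells, and in 16.6% and 3.004% of B cells. Other C1q-high cells had it in 14.6% and 2.89%, no more than B cells. Unthinned shares in Kupffer cells were 64.7% and 33.6%, and in B cells 23.1% and 5.39%. Thinned Kupffer cells with a Marco UMI held on average 20.02 of them in wild-type and 7.54 in knockout cells, so both the share of cells and the level per positive cell were lower. The part of free RNA in this was not tested.

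Kupffer cells with a Timd4 UMI (123 wild-type, 55 knockout) and without one (262 and 192) were set side by side, a split made after seeing the data. The rule reads Timd4, so cells without it needed at least 3 Clec4f UMIs, and finding a Timd4 UMI also depends on a cell's depth. Contrasts between these groups are therefore a description only. Marco stood at 5408 CPM in wild-type cells with and 1162 CPM in those without a Timd4 UMI. In the knockout the levels were 616 and 276 CPM, so its log2 ratio was -3.13 with and -2.07 without. Vsig4 differed little in cells with a Timd4 UMI (1323 and 1216 CPM, -0.12, -0.24 to -0.01) and more in those without (1216 and 780 CPM, -0.64, -0.72 to -0.57). C6 was at -0.11 (-0.36 to 0.13) and -0.60 (-0.81 to -0.40). Colec12, a collectin with a scavenger receptor fold, was at -0.10 (-0.40 to 0.18) in cells with and -2.03 (-2.50 to -1.63) in cells without a Timd4 UMI. Cd5l was at -0.72 in both. A cell without a Timd4 UMI may still make the gene, since Timd4 was sparse.

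Scavenger and efferocytosis receptors had a median of -0.11. Of 18, 4 were at least 2-fold lower and none higher, beside 1.64% and 3.3% of all genes. Besides Marco and Cd163 these were Colec12 (125 and 57.1 CPM, -1.12) and Gas6 (66.5 and 28.4 CPM, -1.22), the bridging ligand that links phosphatidylserine on dead cells to Axl and Mertk. Colec12 was at -0.02 in the 99 and 78 cells with few UMIs of other cells, and Gas6 at -0.03 with no limits on other cells' UMIs. The receptors themselves went opposite ways: Axl stood at 367 and 265 CPM (-0.47, -0.59 to -0.35) and Mertk at 788 and 1269 CPM (0.69, 0.63 to 0.75). The scavenger receptor Msr1 stood at 444 and 300 CPM (-0.56), while Cd36 (588 and 588 CPM) and the mannose receptor Mrc1 (443 and 444 CPM) had ratios of 0.00. In the 99 and 78 cells Cd36 was at -1.15.

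Chemokines had a median of -0.27. Of 16, 3 were at least 2-fold lower and none higher, beside 1.64% and 3.3% of all genes. Cxcl13, the chemokine that draws B cells into follicles, on chromosome 5 (95956951 to 95961068, plus strand), had 5683 wild-type UMIs (1142 CPM) and 449 knockout UMIs (129 CPM). Its log2 ratio was -3.14 (-3.29 to -3.01). It was -1.69 in the 99 and 78 cells with few UMIs of other cells, and -3.88 once the 5 cells richest in it were left out of either library. Those cells held 19.7% and 52.1% of its UMIs. After thinning, 38.8% of wild-type and 12.2% of knockout Kupffer cells had a Cxcl13 UMI (52.2% and 21.9% unthinned), beside 10.2% and 0.515% of B cells (15.4% and 1.52% unthinned). The other chemokines past 2-fold were Ccl6 (1517 and 688 CPM, -1.14) and the monocyte attractant Ccl7 (139 and 67.8 CPM, -1.03). Ccl2, the main ligand of the monocyte receptor Ccr2, stood at 100.3 and 100.5 CPM (0.00, -0.20 to 0.20), and the interferon-induced Cxcl10 at 172 and 314 CPM (0.86; 1.48 in the 99 and 78 cells).

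Saa3, a serum amyloid A protein that macrophages make in the acute phase, had the lowest ratio. It lies on chromosome 7 (46711998 to 46715700, minus strand) and had 1570 wild-type UMIs (315 CPM) and 44 knockout UMIs (12.6 CPM), a log2 ratio of -4.61 (-5.11 to -4.21). A few cells carried much of it: the 5 richest held 40.2% of wild-type and 68.2% of knockout UMIs, and without them the ratio was -5.44. A Saa3 UMI was found in 17.4% and 3.93% of thinned Kupffer cells and in 33.8% and 7.69% unthinned. B cells had it in 3.38% and 1.63% after thinning and in 6.12% and 3.45% before.

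Complement genes that the rule did not read stood low together, with a median of -0.53. Of these 16, 5 were at least 2-fold lower, none higher, beside 1.64% and 3.3% of all genes. Intervals of 13 genes lay below 0, beside 17.6% of all genes. Fcna, given above, was among the 5. Cfb, factor B of the alternative pathway, stood at 289 and 85.6 CPM (-1.75, -1.94 to -1.57). C3, the central component, stood at 142 and 41.1 CPM (-1.78), but 5 cells held 44.9% of its wild-type UMIs. With the 5 richest cells left out of either library it was at -1.16, and with no limits on other cells' UMIs at -0.29. C4b was at 223 and 99.6 CPM (-1.16), a value made uncertain by its near-identical neighbour C4a. The decay-accelerating inhibitor Cd55 stood at 125 and 37.6 CPM (-1.72; -0.91 with no such limits) and the positive regulator Cfp (properdin) at 613 and 370 CPM (-0.73). Summed over the list, complement genes took a median of 0.385% of a wild-type and 0.222% of a knockout Kupffer cell's UMIs, and 17.0% of knockout cells lay above the wild-type median.

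Glycolysis genes had the lowest list median, -0.79. Of 14, 4 were at least 2-fold lower, none higher, beside 1.64% and 3.3% of all genes. Intervals of 11 genes lay below 0, beside 17.6% of all genes. The 4 were Pgk1 (170 and 69.2 CPM, -1.29), Pgam1 (238 and 99.3 CPM, -1.26), the phosphofructokinase Pfkl (45.4 and 19.2 CPM, -1.22) and the triosephosphate isomerase Tpi1 (206 and 91.3 CPM, -1.17). Gapdh stood at 1021 and 598 CPM (-0.77), and Ldha, which makes lactate, at 326 and 186 CPM (-0.81). Per cell the list took a median of 0.284% and 0.169% of UMIs, and 73.7% of knockout cells lay below the wild-type lower quartile. The list's median was -0.67 in other C1q-high cells and -0.32 in B cells, where the median of all genes was 0.14.

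**Figure D3:**
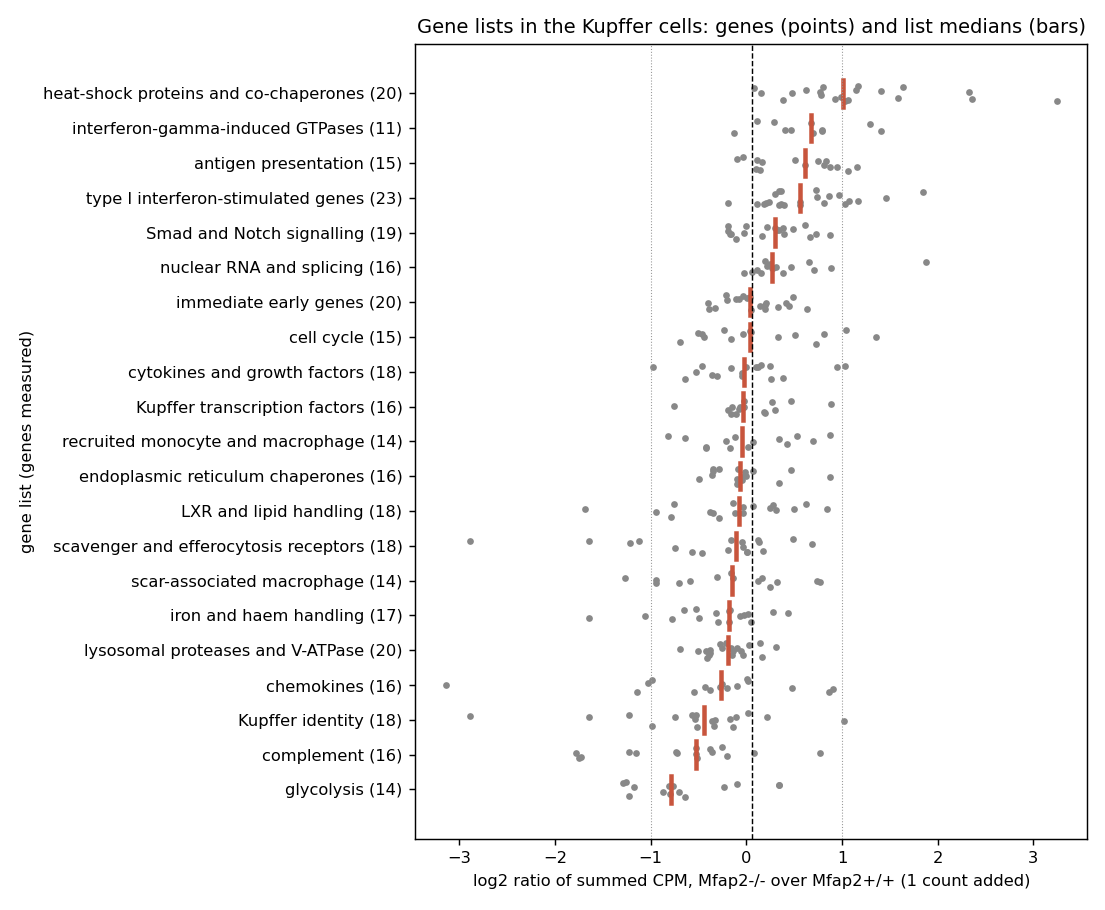
Each point is a gene of a list with at least 50 UMIs, placed by its log2 ratio of summed CPM, knockout over wild type, in Kupffer cells. Red bars are list medians, the dashed line is the median of all 9262 genes (0.06), dotted lines mark 2-fold, and numbers in brackets count genes. Heat-shock genes have the highest median (1.01) and glycolysis genes the lowest (-0.79).

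Heat-shock proteins and co-chaperones stood highest. Heat shock factor 1 is known to activate these genes when unfolded proteins build up. All 20 measured genes had ratios above 0, beside 55.0% of all genes, and 18 had intervals above 0, beside 25.5%. Of the 20, 10 were at least 2-fold higher, beside 3.3% of all genes, and the median was 1.01. Their sum was 0.906% of wild-type and 1.87% of knockout Kupffer cell UMIs. Bag3, a co-chaperone of Hsp70 on chromosome 7 (128523616 to 128546981, plus strand), had 340 wild-type UMIs (68.3 CPM) and 2263 knockout UMIs (649.7 CPM), a log2 ratio of 3.25 (3.08 to 3.42). The small heat-shock protein Hspb1 stood at 43.0 and 222 CPM (2.36), and the Hsp110 chaperone Hsph1 at 300.4 and 1506 CPM (2.32). Dnajb1 stood at 294 and 883 CPM (1.59), and the mitochondrial chaperonin Hspd1 at 150.3 and 467 CPM (1.63). Among inducible Hsp70 genes, Hspa1b stood at 1598 and 3273 CPM (1.03) and its near-identical copy Hspa1a at 1316 and 2300 CPM (0.81), a pair between which reads can be split. In the 99 and 78 cells with few UMIs of other cells, Bag3 was at 2.5 and Hspb1 at 1.21.

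The heat-shock difference was seen in most cells and in other cell types too. The list took a median of 0.832% of a wild-type and 1.72% of a knockout Kupffer cell's UMIs, and 75.3% of knockout cells lay above the wild-type upper quartile. After thinning, Bag3 was found in 15.8% and 56.3% of Kupffer cells and Hsph1 in 43.3% and 87.8%. Unthinned, the shares were 41.3% and 78.5% for Bag3 and 76.4% and 93.1% for Hsph1. B cells had Bag3 in 4.399% and 16.3% and Hsph1 in 61.1% and 83.0% after thinning, and in 7.37% and 27.9% and in 69.8% and 92.7% before. The list's median was 0.81 in other C1q-high cells and 0.50 in B cells.

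Promoter windows from RefSeq (GRCm38.p6, 250 bases before to 50 after the start) were searched for the heat-shock element GAANNTTC, which reads the same on both strands. Windows were found for 16 of the 20 listed genes. Of these, 10 (62.5%) held the letters, Bag3, Hsph1, Hspd1, Hspb1 and Hspa1b among them, beside 9.04% of all 27025 genes with a window. Shown are the 250 bases before the start of 2 genes whose matches lie there, with matches in capitals.
Hspb1 (chr5:135887669-135887918, plus strand): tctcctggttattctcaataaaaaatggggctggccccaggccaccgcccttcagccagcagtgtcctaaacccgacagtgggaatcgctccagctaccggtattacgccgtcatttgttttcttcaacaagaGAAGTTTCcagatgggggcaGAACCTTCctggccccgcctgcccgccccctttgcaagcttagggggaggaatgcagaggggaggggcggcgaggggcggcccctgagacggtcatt
Hspa1b (chr17:34959239-34959488, minus strand): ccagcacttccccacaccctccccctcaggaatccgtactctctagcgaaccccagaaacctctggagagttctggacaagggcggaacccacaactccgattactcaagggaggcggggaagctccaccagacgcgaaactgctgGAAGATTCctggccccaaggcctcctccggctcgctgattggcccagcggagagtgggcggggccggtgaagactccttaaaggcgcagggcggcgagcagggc
The matches of Hspb1 begin 117 and 97 bases before the start, and that of Hspa1b 104 bases before it. A match describes letters and is not evidence of binding.

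Endoplasmic reticulum chaperones did not share the pattern of the heat-shock list, with a median of -0.07 over 16 genes and none past 2-fold. Their sum was 0.277% of wild-type and 0.307% of knockout Kupffer cell UMIs, and 61.9% of knockout cells lay above the wild-type median. Their main member Hspa5 (BiP) stood at 532 and 976 CPM (0.87), and Calr at 446 and 349 CPM (-0.35). Immediate early genes, which cells switch on within minutes of a stimulus, had a median of 0.04 over 20 genes, none past 2-fold, with Fos at 4102 and 4709 CPM (0.20), Atf3 at 1758 and 2720 CPM (0.63) and Dusp1 at 3278 and 2504 CPM (-0.39).

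Slc5a3, a transporter of the osmolyte myo-inositol, stood at 31.75 and 173 CPM (2.44; 1.81 in the 99 and 78 cells), and the mitochondrial ribosome gene Mrps6 at 68.9 and 335 CPM (2.28). The genes overlap on the same strand of chromosome 16, so their reads cannot be kept apart. Rsrp1, which encodes an arginine- and serine-rich protein, stood at 102 and 377 CPM (1.88). Among 16 nuclear RNA and splicing genes it was the only one past 2-fold, and the list's median was 0.27, with Malat1 at 0.47 and Neat1 at 0.65. A530013C23Rik (48.4 and 154 CPM, 1.67) and AW011738 (63.1 and 155 CPM, 1.3; 2.6 in the 99 and 78 cells) completed the 10 highest, and Ctla2b, an inhibitor of cathepsins, stood among the 10 lowest (262 and 116 CPM, -1.17; -0.46 in the 99 and 78 cells).

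Antigen presentation genes had a median of 0.61. At least 2-fold higher were 2 of 15, none lower, beside 3.3% and 1.64% of all genes. Intervals of 12 genes lay above 0, beside 25.5% of all genes. The class II chains H2-Eb1 (585 and 1219 CPM, 1.06), H2-Aa (690 and 1330 CPM, 0.95) and H2-Ab1 (568 and 1014 CPM, 0.84) stood beside the invariant chain Cd74 (1838 and 3098 CPM, 0.75). Ciita, the coactivator that switches class II genes on, was low at 14.9 and 33.3 CPM (1.16, 0.73 to 1.60), and the costimulator Cd86 stood at 672 and 1182 CPM (0.81). Class I differed little, with B2m at 1323 and 1484 CPM (0.17).

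Antigen presentation genes made up more of most knockout Kupffer cells' UMIs. The list took a median of 0.682% and 0.965% of a cell's UMIs, and 81.4% of knockout cells lay above the wild-type median. H2-Eb1 was found in 54.8% and 80.3% of thinned Kupffer cells and in 89.1% and 94.7% unthinned. B cells make class II themselves (96.8% and 97.6% thinned), and the list's median was 0.02 in B cells and 0.36 in other C1q-high cells. Summed markers of dendritic cells, which carry much class II, were also higher in knockout Kupffer cells. They stood at 60.1 and 88.1 CPM for 8 conventional and 215 and 316 CPM for 6 plasmacytoid markers. Tcf4 alone made up 195 and 289 CPM of the latter, and it stood at 418 and 555 CPM in B cells. Clec9a, which overlaps the Kupffer gene Clec1b on the same strand, made up 22.5 and 35.6 CPM of the former. The part of dendritic cells was not tested. Kupffer cells remained below other C1q-high cells in H2-Eb1, with log2 ratios between the populations of -1.61 in wild-type and -1.21 in knockout cells.

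Type I interferon-stimulated genes had a median of 0.56. Intervals of 20 of the 23 genes measured lay above 0, beside 25.5% of all genes. At least 2-fold higher were 5, none lower, beside 3.3% and 1.64% of all genes. The 5 were Ifit2 (38.2 and 138 CPM, 1.84), the ubiquitin ligase Herc6 (22.3 and 61.4 CPM, 1.46), Parp14 (91.8 and 207 CPM, 1.17), Ifit3 (41.4 and 87.0 CPM, 1.07) and the ubiquitin-like Isg15 (67.3 and 138 CPM, 1.03). Per cell the list took a median of 0.268% and 0.357% of UMIs, and 76.9% of knockout cells lay above the wild-type median. Interferon-gamma-induced GTPases, which attack vacuoles of intracellular pathogens, had a median of 0.67, and intervals of 7 of 11 lay above 0. At least 2-fold higher were 2, none lower: Iigp1 (47.6 and 127 CPM, 1.41, or 2.0 in the 99 and 78 cells) and Irgm1 (14.5 and 35.6 CPM, 1.29). Gbp2 stood at 53.5 and 48.8 CPM (-0.13, -0.42 to 0.15). In B cells the medians were 0.78 and 0.57, so these genes stood high outside Kupffer cells as well.

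The same windows were searched for an interferon-stimulated response element, GAAANNGAAA, on both strands. It was held by 8 of 16 type I genes with a window (50%) and 9 of 10 GTPases (90%), beside 3.99% of all genes with a window. Shown are 2 genes past 2-fold whose matches lie before the start, with matches, which may overlap, in capitals.
Ifit3 (chr19:34583279-34583528, plus strand): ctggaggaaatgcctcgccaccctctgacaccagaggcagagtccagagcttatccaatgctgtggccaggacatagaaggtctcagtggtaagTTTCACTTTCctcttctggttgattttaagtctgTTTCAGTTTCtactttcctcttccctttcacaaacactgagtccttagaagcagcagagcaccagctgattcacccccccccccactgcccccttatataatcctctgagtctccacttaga
Isg15 (chr4:156200819-156201068, minus strand): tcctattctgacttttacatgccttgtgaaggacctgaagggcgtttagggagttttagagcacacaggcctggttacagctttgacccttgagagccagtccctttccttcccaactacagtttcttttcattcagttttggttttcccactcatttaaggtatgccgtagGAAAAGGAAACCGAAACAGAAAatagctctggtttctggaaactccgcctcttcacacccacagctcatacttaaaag
The 2 matches of Ifit3 begin 156 and 122 bases before the start, on the opposite strand, and the 3 overlapping ones of Isg15 begin 78, 72 and 66 bases before it. No heat-shock list gene with a window (0 of 16) held this element, nor did any of 16 identity, 13 complement or 14 glycolysis genes. The heat-shock element was held by 2 of 16 type I genes (12.5%), Bst2 and Herc6. It was held by 1 of 10 GTPases (10%), beside 9.04% of all genes with a window.

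Transcription factors of Kupffer identity differed little as a group, with none of 16 past 2-fold and a median of -0.03. Nr1h3, which maintains the Kupffer programme, stood at 418 and 248 CPM (-0.75, -0.87 to -0.64). Spic (254 and 243 CPM), Id3 (1414 and 1385 CPM) and Maf (358 and 351 CPM) had intervals that held 0. Pparg stood at 52.85 and 97.9 CPM (0.89).

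Of 19 Smad and Notch signalling genes, none was past 2-fold, and the median was 0.30. The TGF-beta receptor Tgfbr1 stood at 87.8 and 146 CPM (0.73), the inhibitory Smad7, itself a Smad target, at 59.3 and 109 CPM (0.87) and the feedback repressor Skil at 279 and 443 CPM (0.67). In the 99 and 78 cells with few UMIs of other cells the list's median was -0.01.

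Lipid genes went both ways, with a median of -0.08 over 18 genes. The desaturase Scd2 was past 2-fold (84.0 and 25.8 CPM, -1.69; -0.95 with no limits on other cells' UMIs), and the lipase Lpl stood at 829 and 431 CPM (-0.94). The lipid droplet coat protein Plin2 stood at 714 and 1284 CPM (0.85), the cholesterol exporter Abca1 at 1215 and 1509 CPM (0.31) and Apoe at 20652 and 24522 CPM (0.25). Iron and haem genes had a median of -0.18 over 17 measured genes, and of -0.29 in B cells. At least 2-fold lower were 2, beside 1.64% of all genes. These were Cd163 and the haem transporter Slc48a1 (119 and 56.8 CPM, -1.06, or -0.25 in the 99 and 78 cells). Ferritin heavy chain, Fth1, stood at 9890 and 5761 CPM (-0.78) and the light chain Ftl1 at 7029 and 5740 CPM (-0.29), and haem oxygenase Hmox1 at 1593 and 1416 CPM (-0.17).

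None of 20 lysosomal genes was past 2-fold, with a median of -0.19. Intervals of 15 lay below 0 and of 3 above 0, beside 17.6% and 25.5% of all genes. Scar-associated macrophage genes had a median of -0.15, with Gpnmb at 220 and 367 CPM (0.74; 0.02 in the 99 and 78 cells) and Trem2 at 278 and 345 CPM (0.31). Spp1, the 1 gene of that list past 2-fold (349 and 145 CPM, -1.27), was at 0.44 with no limits on other cells' UMIs and at -0.02 without its 5 richest cells, so its value rested on few cells. Recruited monocyte genes had a median of -0.05 with none past 2-fold. Ccr2 stood at 23.5 and 33.9 CPM (0.53, 0.15 to 0.91; -0.08 with no such limits) and Ly6c2 at 19.3 and 25.8 CPM (0.42, -0.01 to 0.85). Cytokines and growth factors had a median of -0.02, with Tnf at 160.0 and 81.3 CPM (-0.97), Il1b at 1384 and 1336 CPM (-0.05), Tgfb1 at 219 and 171 CPM (-0.36) and Igf1 at 565 and 548 CPM (-0.04). The 1 gene of that list past 2-fold was Csf1 (7.23 and 14.9 CPM, 1.03). Cell cycle genes were sparse: Mki67 stood at 44.4 and 63.2 CPM (0.51). Beside 3.3% of all genes, 2 of 15 measured ones were at least 2-fold higher. These were Ccnb2, with 23 and 42 UMIs (1.36), and Birc5, with 71 and 103 UMIs (1.05). With the 5 richest cells left out of either library they were at 0.71 and 0.90, below 2-fold.

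**Figure D4:**
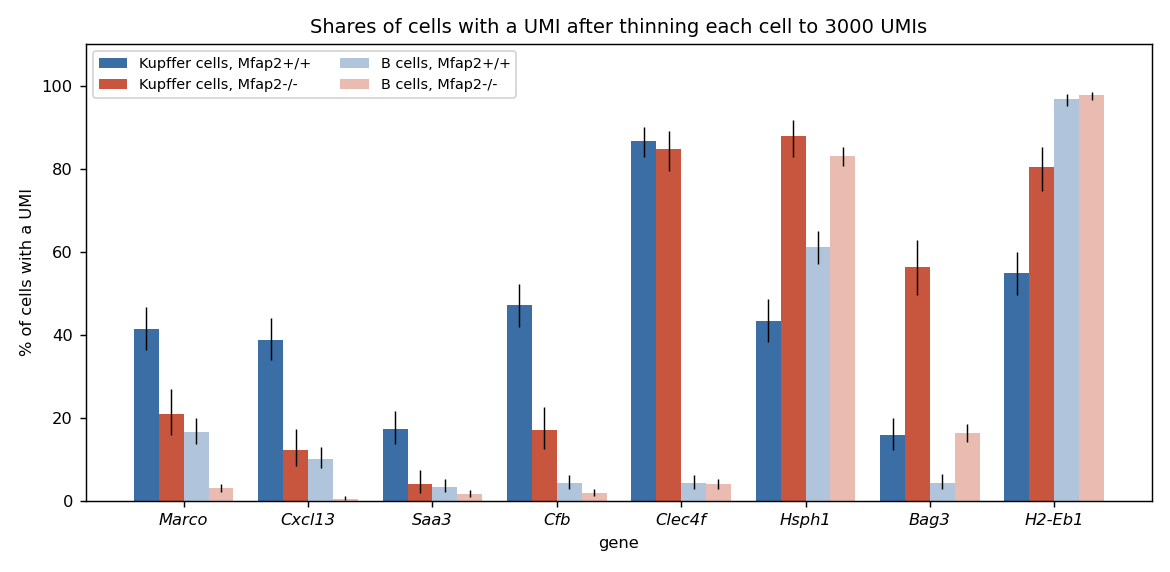
Bars are shares of cells with at least 1 UMI of a gene after every cell was thinned to 3000 UMIs, in Kupffer cells (full colour) and B cells (pale) of the wild-type (blue) and knockout (red) library, with Clopper-Pearson 95% intervals. Marco and Cxcl13 are lower in the knockout in both cell types, Clec4f is alike in both libraries, and Bag3 is found in 15.8% and 56.3% of Kupffer cells.

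Markers of other cells were counted in Kupffer cells of each library. Erythroid markers summed to 519 and 133 CPM (log2 ratio -1.96) and were lower in B cells too (1954 and 175 CPM). Neutrophil markers summed to 1646 and 1031 CPM (-0.67), beside 1555 and 1554 CPM in other C1q-high cells. Hepatocyte markers summed to 221 and 273 CPM, and in other C1q-high cells to 282 and 1264 CPM. In Kupffer cells 4 of 7 measured were at least 2-fold higher, beside 3.3% of all genes. The largest members went the other way, with Ttr at 99.5 and 60.6 CPM (-0.71) and Alb at 75.4 and 65.5 CPM (-0.20). The 5 richest cells held 62.9% of wild-type Alb UMIs. The sum of 10 stellate and fibroblast markers was 223 and 282 CPM, but its members went both ways. Of 8 measured, 3 were at least 2-fold higher and none lower, with Col3a1 at 14.7 and 57.7 CPM and Dcn at 103 and 83.5 CPM. The sum of 7 endothelial markers that the rule did not read was 217 and 272 CPM, and that of 7 B cell markers 462 and 611 CPM. The sums of both dendritic cell lists had log2 ratios of 0.55, with Tcf4 and Clec9a as their largest members. The part of other cells in the values above was not tested.

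Other C1q-high cells, 1304 wild-type and 1313 knockout cells that met the same limits with under 3 Clec4f and Timd4 UMIs, were set beside the Kupffer cells within each library. The rule split these cells, so the contrast is a description. Of 11166 genes measured in both libraries, 155 (1.39%) were at least 2-fold higher and 165 (1.48%) at least 2-fold lower in Kupffer cells of both. Within the wild type alone 2.24% of 11489 genes were higher and 5.07% lower, and within the knockout 2.77% of 11852 were higher and 4.22% lower.

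**Figure D5:**
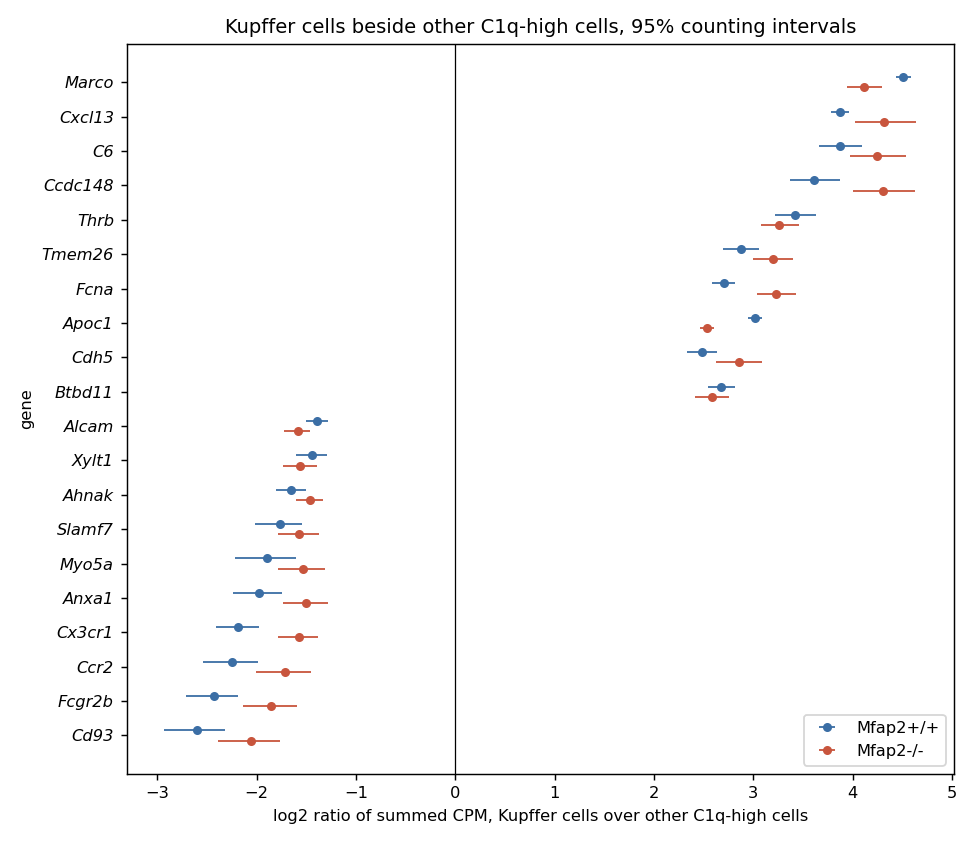
Points are log2 ratios of summed CPM, Kupffer cells over other C1q-high cells, within the wild-type (blue) and knockout (red) library, for the 10 genes highest and the 10 lowest in both, with 95% counting intervals. Marco stood highest in the wild type (4.51) and Cd93 lowest in both (-2.60 and -2.06).

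Marco and Cxcl13 stood high in Kupffer cells over other C1q-high cells in both libraries in spite of their low knockout levels. The log2 ratios between the populations were 4.51 and 4.12 for Marco and 3.87 and 4.32 for Cxcl13. C6 was at 3.87 and 4.24, the thyroid hormone receptor Thrb at 3.42 and 3.26, Ccdc148 at 3.61 and 4.30, Tmem26 at 2.87 and 3.20 and Btbd11 at 2.68 and 2.58. The apolipoprotein Apoc1 was at 3.01 and 2.54, Fcna at 2.70 and 3.23 and the cadherin Cdh5 at 2.48 and 2.85. Thrb (181 and 187 CPM), Tmem26 (171 and 167 CPM) and Ccdc148 (135 and 123 CPM) had knockout to wild-type intervals that held 0, so a difference between libraries was not detectable for these genes at this depth.

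Genes lower in Kupffer cells included monocyte genes. The chemokine receptors Ccr2 (-2.24 and -1.71) and Cx3cr1 (-2.18 and -1.57), the inhibitory Fc receptor Fcgr2b (-2.43 and -1.85), Cd93 and the annexin Anxa1 (-1.98 and -1.5) were lower in both libraries. So were Slamf7 (-1.77 and -1.57), the motor protein Myo5a (-1.89 and -1.54), Ahnak (-1.65 and -1.46), Xylt1 (-1.44 and -1.56) and the adhesion molecule Alcam (-1.39 and -1.59).

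The knockout to wild-type ratios of the other C1q-high cells rest on the same libraries. There, 4.33% of 12783 genes were at least 2-fold higher and 2.78% at least 2-fold lower. List medians in these cells were -0.52 for Kupffer identity, -0.56 for complement, 0.31 for type I interferon-stimulated genes and 0.23 for the GTPases, beside -0.44, -0.53, 0.56 and 0.67 in Kupffer cells. Saa3 stood at -4.61 in Kupffer cells and -1.22 in the other C1q-high cells, and Cd55 stood at -1.72 in Kupffer cells and 0.11 in the others. With 1 library per genotype these gaps between populations were not tested.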

How the data were processed

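Droplet single-cell RNA libraries of liver non-parenchymal cells, 1 per genotype, were used. The deposited matrices hold raw UMI counts per gene and barcode. The matrix headers name Cell Ranger 7.0.1, whereas the submitters' processing notes name Cell Ranger 3.1.0, Seurat and build mm10. The treatment of intronic reads and of strand is not given in the sources used here. Of 32245 gene symbols, 99.6% have an ID in GENCODE M21 (GRCm38), used for positions and overlaps.

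A barcode was kept from 200 genes upward if mitochondrial UMIs made up no more than 20%. Doublets were left in, and their removal was an alternative: Scrublet (scanpy 1.11.5) scores, the top 0.8% per 1000 barcodes, took 20 wild-type and 10 knockout Kupffer cells, while its automatic threshold marked 0 and 717 barcodes. B cells for background had at least 5 UMIs of Cd79a, Cd79b and Ms4a1, no Cd3 UMI and under 20 C1q UMIs.

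UMIs were summed per population and library and scaled to CPM. A gene counted as measured from 50 UMIs upward, both libraries summed. With 1 library per genotype no test was possible and no p-value is given. Intervals are exact: Poisson for CPM, Clopper-Pearson for shares, conditional binomial for ratios. The interval step was checked on simulated counts drawn from the Poisson model that the intervals assume. That check tests the calculation only and does not cover UMIs that cluster in few cells.

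The cells, gene lists and rules were chosen with earlier results of these data known. Named genes are the 10 highest and 10 lowest knockout to wild-type ratios with a mean of at least 100 CPM and a CPM, in the higher library, no lower than in the remaining barcodes. Beside them stand the 10 highest and 10 lowest genes against other C1q-high cells in both libraries, and list members. Genes read by the rule, mitochondrial, ribosomal and haemoglobin genes were left out. Lists contain 21 gene groups, and 1 listed type I interferon gene and 1 listed scavenger gene were not analysed here. Many named genes overlap an opposite-strand gene (Cxcl10, H2-Eb1, Gas6, Tpi1 and Hspd1 with Hspe1 among them), so their counts hold only if strand was used. By name, 1 gene of the transcription factor list is not reported here.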

Additional observations from a re-analysis of the deposited data

Results flagged for a closer look

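Of 105 genes compared, 6 had knockout to wild-type ratios of opposite sign in Kupffer cells and in other C1q-high cells, with both counting intervals on their own side of 0. With 1 library per genotype the difference was not tested. The widest gap belonged to Colec12, at -1.12 in Kupffer cells and 0.45 in the others. Hmox1 was at -0.17 and 0.39, and Apoc1 at -0.28 and 0.19. Trem2 was at 0.31 in Kupffer cells and -0.19 in the others, Clec1b at 0.21 and -0.28, and Apoe at 0.25 and -0.13. Of these, only Colec12 was past 2-fold in either population. In the 99 and 78 Kupffer cells with few UMIs of other cells Colec12 was at -0.02, Apoc1 at 0.27 and Hmox1 at 0.076, and with no limits on other cells' UMIs Clec1b was at -0.050, so the opposition of these 4 rests on which Kupffer cells were counted.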

How the results depend on the processing

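Across 15 alternatives, 106 values were recomputed for the share of Kupffer cells, the counts of genes past 2-fold and the medians of the identity, scavenger, heat-shock and both interferon lists. Of these, 87 stayed within a counting interval or, for counts of genes, within 1.5 times, 19 moved and 0 turned. For a list median that interval was borrowed from the gene nearest the median, so it is not an error of the median. Leaving out cells with more than 5 UMIs of the chosen markers of other cells (99 and 78 cells left) gave 95 genes higher and 75 lower. The log2 ratio of shares was -0.51, the identity median -0.14 and the Smad and Notch median -0.0086. There Apoc1 (0.27), Hmox1 (0.076), Spp1 (0.23) and Cd163 (7.3e-05) turned. Applying no limits on other cells' UMIs, an alternative added after seeing the data, gave 596 genes higher, -0.54 for the share and -0.52 for the identity median, and turned Ccr2 (-0.076), Clec1b (-0.050) and Spp1 (0.44). Thinning to 3000 UMIs gave 124 genes higher, 96 lower and an identity median of -0.59. Requiring 5 Clec4f and Timd4 UMIs gave 99 genes lower, an identity median of -0.52 and Spp1 at 0.10. Requiring 2 gave an identity median of -0.56. Thinning the knockout to wild-type depth left 241 knockout Kupffer cells beside 385 wild-type ones, with an identity median of -0.33. A minimum of 20 UMIs gave 620 genes higher and 264 lower. One of 200 gave 101 and 66, with an identity median of -0.52. The counts move with the number of genes tested; other causes were not tested. The heat-shock median stayed between 0.90 and 1.07. Median-of-ratios scaling shifted all log2 ratios by -0.06. Of 105 single genes (1551 values), 6 turned under some alternative, none of them among the 20 named for their ratio under filters on level that Cd163 and Spp1 did not pass. List medians near 0 (transcription factors, lipid, monocyte, cytokine, immediate early and cell cycle genes) also crossed 0. No paired analysis was possible because each genotype has 1 library.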
